A study of Mus musculus with 141 samples.

Results

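Single bone marrow cells that carried transcripts of the mast cell chymase gene Cma1 were compared by whether they also carried Mcpt8, the gene of a basophil protease. Both groups are BMCP, the sorted basophil/mast cell progenitors of the study, and membership was chosen by the measured levels of these same genes, at a limit of 50 CPM (reads scaled to 1e6 nuclear-encoded counts of the cell). The 15 Cma1-only cells had Cma1 at or above the limit and Mcpt8 under it, and the 14 Mcpt8 plus Cma1 cells had both genes at or above it. Together these are 29 of the 141 cells in the series, and 29 of the 89 BMCP that passed the filters on depth, mitochondrial share and spike-in share. Of the other kept BMCP, 54 had neither gene at the limit and 6 had Mcpt8 without Cma1.

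The series holds 94 BMCP and 47 granulocyte/monocyte progenitors (GMP) from the marrow of 3 female C57BL/6 mice, whose age the labels do not give. BMCP were sorted as live cells lacking lineage markers and Sca1, with Kit on the surface and high integrin beta7 and CD16/32. Every cell of both groups compared here shares that gate and strain, no treatment is named, and no mouse of origin is given for any cell. Each group was therefore treated as 1 sample: no test was run, no p-value is given, and a difference is described by summed levels, by shares of cells and by the lowest, median and highest cell.

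Mast cells and basophils are granulated cells that bind IgE, and both release histamine and lipid mediators when that IgE meets antigen. Mast cells mature in tissues and store chymases, tryptases and carboxypeptidase bound to heparin in their granules, whereas basophils finish maturation in the marrow and circulate in blood. Marrow progenitors of both lineages carry high integrin beta7 in mice, and transcripts of Cma1 and Mcpt8 are commonly read as signs of the mast cell and the basophil lineage.

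The values that chose the cells are given only as a description. In the Cma1-only cells Cma1 ranged from 55.1 to 9263 CPM with a median of 427, and Mcpt8 from 0 to 31.1 CPM with a median of 3.19. In the Mcpt8 plus Cma1 cells Cma1 ranged from 147 to 34300 CPM with a median of 5107, and Mcpt8 from 103 to 13003 CPM with a median of 1918. The groups thus differ in Cma1 as well as in Mcpt8. Just inside the Cma1 limit lay BMCP replicates 5, 34, 41 and 31, at 55.1, 56.3, 60.7 and 98.4 CPM, which rested on 25, 13, 20 and 19 reads. The nearest cells outside it had 39.02, 41.1 and 48.3 CPM. On the Mcpt8 axis the lowest 3 cells inside had 103, 182 and 213 CPM, and the highest 3 outside had 9.07, 19.8 and 31.1 CPM.

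**Figure D1:**
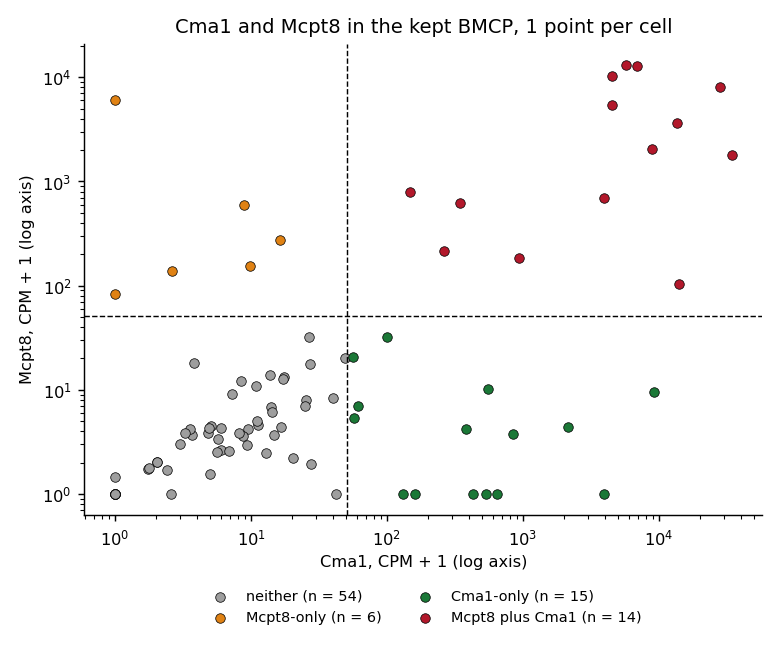
Cma1 (x axis) against Mcpt8 (y axis) in the 89 kept BMCP, as CPM + 1 on log axes, with 1 point per cell and dashed lines at the limit of 50 CPM. The 14 Mcpt8 plus Cma1 cells lie at upper right and the 15 Cma1-only cells at lower right, and no member lies between 31.1 and 103 CPM of Mcpt8.

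The genes that choose the cells sit on chromosome 14, and their upstream sequence is shown as a description. It took no part in choosing the cells, which rested on read counts. Cpa3, the mast cell carboxypeptidase gene, and Ifitm1, a small interferon-induced membrane protein gene, are shown beside them as genes that were higher on opposite sides. Each line gives the 250 bases before the RefSeq transcription start on GRCm38.p6, written on the strand of the gene: chr14:55944676-55944925 on the minus strand for Cma1, chr14:56085198-56085447 on the minus strand for Mcpt8, chr3:20242182-20242431 on the minus strand for Cpa3 and chr7:140967826-140968075 on the plus strand for Ifitm1. Capitals mark GATAA or its reverse complement TTATC, the core letters bound by GATA factors such as Gata2, a regulator of both lineages.
Cma1: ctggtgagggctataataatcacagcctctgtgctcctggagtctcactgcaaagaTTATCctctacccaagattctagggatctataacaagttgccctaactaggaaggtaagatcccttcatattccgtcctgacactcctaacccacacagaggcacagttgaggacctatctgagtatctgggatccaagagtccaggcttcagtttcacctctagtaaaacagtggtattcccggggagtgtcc
Mcpt8: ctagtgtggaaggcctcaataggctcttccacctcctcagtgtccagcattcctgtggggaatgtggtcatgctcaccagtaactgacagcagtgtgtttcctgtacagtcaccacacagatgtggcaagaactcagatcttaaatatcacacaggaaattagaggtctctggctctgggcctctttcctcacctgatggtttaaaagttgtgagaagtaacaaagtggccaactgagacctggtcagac
Cpa3: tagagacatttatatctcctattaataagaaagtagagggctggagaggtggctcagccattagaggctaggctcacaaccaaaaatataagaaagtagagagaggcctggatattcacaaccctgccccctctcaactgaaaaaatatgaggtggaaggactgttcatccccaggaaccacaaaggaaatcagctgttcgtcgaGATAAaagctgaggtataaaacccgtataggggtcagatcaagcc
Ifitm1: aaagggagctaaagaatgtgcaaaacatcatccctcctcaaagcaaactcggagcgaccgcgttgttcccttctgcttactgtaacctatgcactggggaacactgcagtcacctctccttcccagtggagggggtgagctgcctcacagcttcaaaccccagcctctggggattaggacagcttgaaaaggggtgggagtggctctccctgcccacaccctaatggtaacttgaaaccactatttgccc
The letters occur 1 time in the windows of Cma1 and Cpa3 and 0 times in those of Mcpt8 and Ifitm1. Over all 32851 promoter windows of this length 22.6% held them, and 17.4% of the windows of the genes compared below did. The shares were 15.6% for genes called towards Mcpt8 plus Cma1 (21 of 135 with a window) and 16.9% for genes called towards Cma1-only (20 of 118). A match is a description of letters and not a binding site.

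Depth differed between the groups. Nuclear-encoded counts per cell were 96129 to 1253155 in the Cma1-only cells (median 453854) and 328280 to 1424770 in the Mcpt8 plus Cma1 cells (median 932081). After each cell was thinned to 200000 reads, a median of 4102 genes was seen in the 13 Cma1-only cells that were deep enough and 3660 in all 14 of the others. Median mitochondrial shares were 4.41% and 4.65%, and nuclear-encoded counts per spike-in count were 6.91 and 8.24. The part of depth in the differences was not tested.

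Kit, the stem cell factor receptor, and Itgb7, the integrin chain of the gate, were read in nearly every member. Kit was at 50 CPM or more in 14 of 15 Cma1-only and 14 of 14 Mcpt8 plus Cma1 cells, and Itgb7 in 13 and 14. Genes of granulocyte progenitors were mostly low: Mpo, a neutrophil granule enzyme, summed to 4.34 and 3.69 CPM. Elane, neutrophil elastase, summed to 1.49 and 0.69 CPM. Ctsg, of the same list, summed to 9.94 and 43.9 CPM and was at the limit in 1 of 15 and 2 of 14 cells. No member had a read of the eosinophil granule genes Prg2, Prg3 or Epx.

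Across 12550 genes with at least 1 CPM of summed counts in either group, Cma1 and Mcpt8 left out, the median log2 ratio of summed CPM + 1 was 0.00 (Mcpt8 plus Cma1 over Cma1-only, as throughout). Single cells are uneven: 30.5% of these genes were at least 2-fold higher in the Mcpt8 plus Cma1 cells and 28.8% in the Cma1-only cells. A gene was called towards a group when it was at least 4-fold higher, reached 20 CPM, stood at 50 CPM or more in at least 33.3% of that group's cells, drew under 50% of its counts from any 1 cell, and was 2-fold higher by the mean of the cells too. By that rule 174 genes (1.39%) were called towards Mcpt8 plus Cma1 and 145 (1.16%) towards Cma1-only. Among sort numbers 1 to 47 (9 Cma1-only and 10 Mcpt8 plus Cma1 cells) the calls were 271 and 131. Among numbers 48 to 94 (6 and 4 cells) they were 81 and 192. The call rule depends on the number of cells in a group, so these counts do not show that the balance of genes turned. Of the 174 and 145 genes, 165 and 144 kept their sign among numbers 48 to 94, whose cells took part in the calls. The ranges of the cells overlapped for every one of the 12550 genes, so each difference below is one of level or frequency within overlapping groups. With counts scaled to spike-ins in place of totals, all genes shifted by 0.25 (log2) and the calls became 225 and 102.

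Granule proteins were the first group examined. Of 12 mast cell protease and granule genes, 7 were measured at 1 CPM or more, 5 of these were at least 2-fold higher in the Mcpt8 plus Cma1 cells and 0 in the Cma1-only cells, beside 30.5% and 28.8% of all genes. The list's median log2 ratio was 2.04, but 4 of the 5 (Cma2, Tpsb2, Tpsg1 and Ctsg) were at 50 CPM or more in at most 2 cells of either group. Cpa3 was at 50 CPM or more in all 29 members, from 94.0 to 23464 CPM (median 3652) in the Cma1-only cells and from 1856 to 30930 CPM (median 17731) in the Mcpt8 plus Cma1 cells. The ranges overlapped, while the middle of the second group lay above all but 1 of the first. Its summed level was 6644 CPM (95% Poisson limits 6590 to 6699) against 16312 (16242 to 16382), or 2.46-fold. Such limits, and all floors given here, cover counting error only.

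Gzmb, the granzyme B gene, was also read in every member, with medians of 3448 and 8300 CPM and a summed ratio of 1.90. Srgn, the serglycin core protein that holds granule proteases, was nearly level, at 3647 and 4195 CPM, with medians of 3659 and 3778 CPM. The tryptase genes Tpsb2 and Tpsg1 were at 50 CPM or more only in BMCP replicate 36, at 1498 and 2039 CPM, a Mcpt8 plus Cma1 cell that also had the highest Cma1. Mcpt2, Mcpt4, Mcpt9 and Tpsab1, further proteases of mature mast cells, had no read in any member.

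Lysosome and granule genes did not move as a block. The 19 genes of granule biogenesis and exocytosis had a median of 0.20. In the Mcpt8 plus Cma1 cells 5 were at least 2-fold higher and in the Cma1-only cells 3, beside 30.5% and 28.8% of all genes. Ctsd, the lysosomal protease cathepsin D, was among the 5: it ranged from 0.93 to 2931 CPM (median 281) in the Cma1-only cells and from 9.14 to 8278 CPM (median 2139) in the others. It reached 50 CPM in 8 of 15 and 13 of 14 cells, shares that differed by only 6.19 points at a limit of 10 CPM, and its summed level was 3.01-fold higher in the Mcpt8 plus Cma1 cells. The vesicle fusion genes Vamp7, Vamp8 and Snap23 lay the other way, with log2 ratios of -1.65, -1.07 and -1.10. Without BMCP replicate 92, Vamp7 stood at -0.23, so that value rests on 1 Cma1-only cell.

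The leading genes of leukotriene and histamine synthesis differed in opposite directions. Alox5 encodes 5-lipoxygenase, which starts leukotriene synthesis, and it was at 50 CPM or more in all 14 Mcpt8 plus Cma1 cells but in 8 of 15 Cma1-only cells. It ranged from 0 to 4712 CPM (median 62.4) in the Cma1-only cells and from 76.2 to 4499 CPM (median 2465) in the others. The share at the limit was 53.3% (95% Clopper-Pearson limits 26.6 to 78.7%) against 100% (76.8 to 100%), and after thinning 7 of 13 and 14 of 14 cells had 10 or more reads. At a limit of 10 CPM the shares differed by 20.0 points. Its log2 ratio was 1.66, and 2.70 without BMCP replicate 33, which gave 55.9% of the Cma1-only reads. Hdc, the enzyme that makes histamine, lay lower in the Mcpt8 plus Cma1 cells, with a log2 ratio of -1.98. It was at 50 CPM or more in 7 of 15 Cma1-only against 3 of 14 Mcpt8 plus Cma1 cells. Among these 7, replicates 25, 31, 34, 5 and 68 had Cma1 below 200 CPM. BMCP replicate 10 gave 51.9% of the Hdc reads of the Mcpt8 plus Cma1 cells, and the ratio was -2.91 without it. Alox5ap, which presents the substrate to 5-lipoxygenase, was at the limit in 7 of 15 and 5 of 14 cells, with a log2 ratio of -0.43. Slc18a2, which loads histamine into vesicles, was at the limit in 14 of 15 and 13 of 14 cells, with medians of 1185 and 866 CPM.

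**Figure D2:**
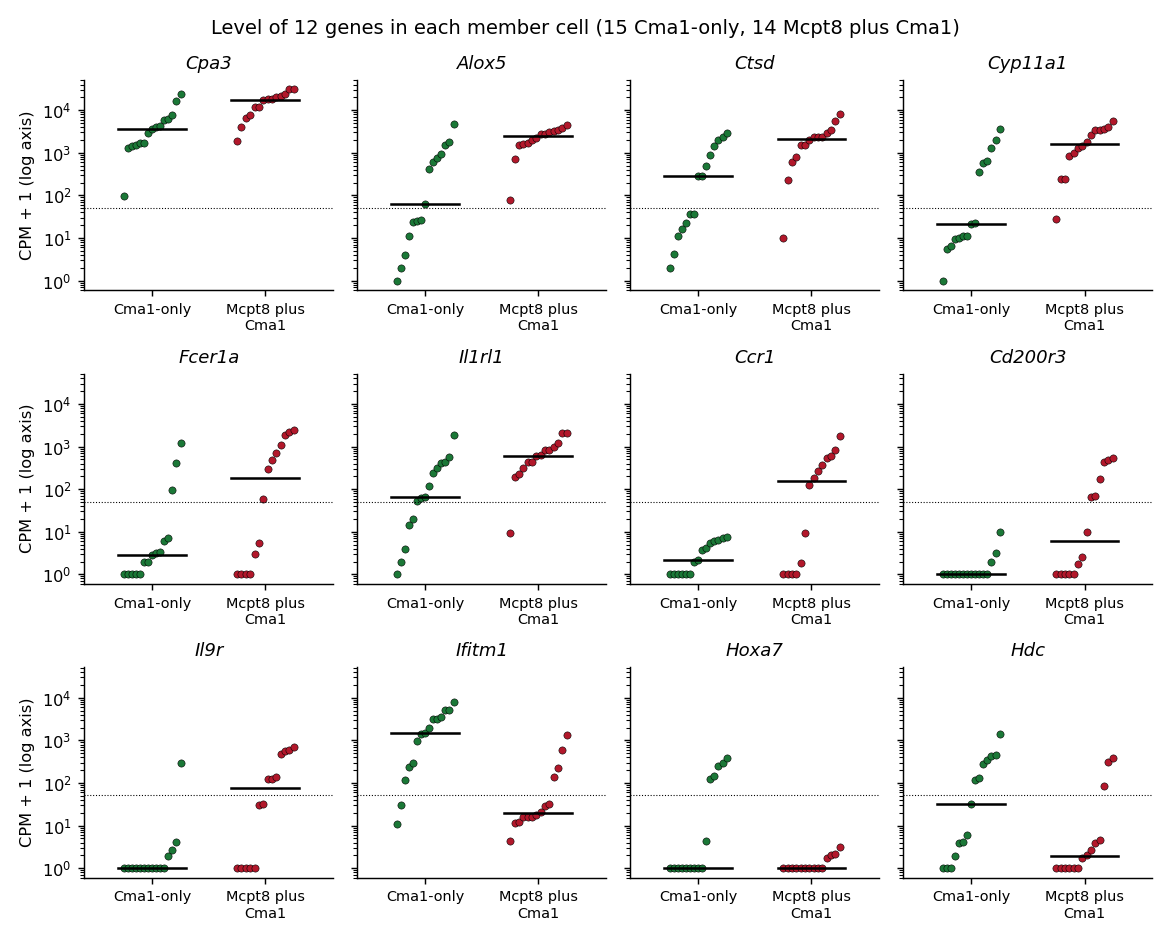
CPM + 1 (log axis) of 12 genes in the 15 Cma1-only cells (green) and the 14 Mcpt8 plus Cma1 cells (red), with 1 point per cell in ascending order, a bar at each group's median and a dotted line at 50 CPM. Alox5 spreads from 0 to 4712 CPM in the Cma1-only cells and gathers between 76.2 and 4499 CPM in the others, and Ifitm1 has medians of 1486 and 18.6 CPM.

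Of 12 listed mast cell regulators and receptors, 8 were measured, with a median log2 ratio of 0.48. The Mcpt8 plus Cma1 cells had 1 at least 2-fold higher and the Cma1-only cells 0, beside 30.5% and 28.8% of all genes. Gata2, a transcription factor of both lineages, was at 50 CPM or more in all 29 members, with summed levels of 2080 and 1745 CPM. Mitf, a transcription factor that drives mast cell genes, was at the limit in 4 of 15 and 8 of 14 cells, with medians of 2.20 and 111 CPM and a log2 ratio of 0.73. Without BMCP replicate 92 that ratio was 1.57. Ndst2, which sulfates heparin in mast cells, was at the limit in 7 of 15 and 13 of 14 cells, with medians of 20.7 and 784 CPM. The 1 gene past 2-fold was the adenosine receptor gene Adora3, at 2.71, which was 1.53 without BMCP replicate 52 and 6.12 without BMCP replicate 33.

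The 3 chains of the IgE receptor differed from each other. Fcer1g, the signalling gamma chain, was at the limit in every member, with medians of 991 and 2036 CPM and a summed ratio of 1.84. Ms4a2, the beta chain, was at the limit in 11 of 15 and 11 of 14 cells, with medians of 583 and 785 CPM. Fcer1a, the chain that binds IgE, was called towards Mcpt8 plus Cma1, with 79.5 against 672 CPM. It was at the limit in 3 of 15 Cma1-only cells (replicates 46, 92 and 43, at 1217, 404 and 93.1 CPM) and in 8 of 14 of the others, where it reached 2392 CPM in replicate 3. Fcer1a was 3.15 (log2) higher in the Mcpt8 plus Cma1 cells among BMCP numbers 1 to 47 and lower, at -2.49, among numbers 48 to 94, where only 4 Mcpt8 plus Cma1 cells lie. The gene was therefore not higher in both ranges of sort numbers.

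Cytokine receptors differed in both directions. Of 21 listed, 13 were measured, with a median of 0.73. At least 2-fold higher were 6 in the Mcpt8 plus Cma1 and 3 in the Cma1-only cells, beside 30.5% and 28.8% of all genes. Il1rl1, the receptor of the alarmin IL-33, ranged from 0 to 1822 CPM (median 63.3) in the Cma1-only cells and from 8.58 to 2116 CPM (median 608) in the others. Csf2rb2, the IL-3 receptor beta chain of mice, had medians of 115 and 668 CPM and a log2 ratio of 1.94. Csf2rb, the near-identical common beta chain, had medians of 276 and 587 CPM, and reads of these genes may be split between them. Il9r, the receptor of the mast cell growth factor IL-9, was called towards Mcpt8 plus Cma1. It stood at 50 CPM or more in 1 of 15 against 7 of 14 cells, and 98.8% of its Cma1-only reads came from BMCP replicate 33. Without that cell its log2 ratio went from 2.83 to 7.25. Csf2ra, the GM-CSF receptor alpha chain, was called towards Cma1-only: 6 of 15 against 1 of 14 cells, and 49.7 against 7.47 CPM.

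Il4ra and Tgfbr1, the receptor genes for IL-4 and for TGF beta, each drew most of their Cma1-only reads from 1 cell. Il4ra was at the limit in 1 of 15 and 4 of 14 cells. BMCP replicate 80 gave 98.8% of its Cma1-only reads, and its log2 ratio of 1.96 became 7.11 without that cell. Tgfbr1 lay the other way and rested on BMCP replicate 33, which gave 72.4% of its Cma1-only reads: its ratio of -2.45 became -0.75 without it. The common gamma chain Il2rg, by contrast, was at the limit in 13 cells of each group, with medians of 604 and 689 CPM.

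Basophil genes also included members that stood apart in each direction. Of 14 listed, 11 were measured, with a median of 1.19. At least 2-fold higher were 7 in the Mcpt8 plus Cma1 and 2 in the Cma1-only cells, beside 30.5% and 28.8% of all genes. In both ranges of sort numbers 3 and 1 of the 11 were, beside 1184 and 1120 of the 12550 genes. Every Cd200r4 read came from BMCP replicate 3, and Osm was at the limit in 2 Mcpt8 plus Cma1 cells. Prss34, of the same list, did not exceed 4.23 CPM in any member. Cyp11a1, a mitochondrial enzyme that starts steroid synthesis, was at the limit in 6 of 15 and 13 of 14 cells, with medians of 20.7 and 1581 CPM. At a limit of 10 CPM the shares differed by 33.3 points. Its log2 ratio was 1.19, rising to 2.14 without BMCP replicate 80, which gave 54.8% of the Cma1-only reads. Among numbers 48 to 94, which hold that cell, the ratio was -0.30. Cd200r3, an activating receptor of basophils and mast cells, had 4 reads in all Cma1-only cells (0.46 CPM, Poisson limits 0.12 to 1.17) and 1158 reads in the others (89.1 CPM). It was at 50 CPM or more in 0 of 15 against 6 of 14 cells, and 4 of the 6 were replicates 14, 82, 36 and 18, at 549, 483, 431 and 170 CPM. A count of 0 in 15 cells allows a share of up to 21.8% by the Clopper-Pearson limit.

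Ifitm1 was the basophil list gene that stood the other way most strongly, and it was called towards Cma1-only. In the Cma1-only cells it ranged from 9.76 to 8028 CPM (median 1486), and in the Mcpt8 plus Cma1 cells from 3.26 to 1352 CPM (median 18.6). It was at the limit in 13 of 15 cells (86.7%, limits 59.5 to 98.3%) against 4 of 14 (28.6%, limits 8.39 to 58.1%). This contrast in frequency holds at 50 CPM and not at 10 CPM, where the share of Mcpt8 plus Cma1 cells minus that of Cma1-only cells was -0.48 points. The summed levels were 1938 and 184 CPM, or 10.5-fold. BMCP replicate 10 gave 50.0% of the reads of the Mcpt8 plus Cma1 cells, and without it the log2 ratio moved from -3.39 to -4.28. The ratio was -3.27 among numbers 1 to 47 and -5.03 among numbers 48 to 94. The other gene of the list in that direction was Itga2, at the limit in 1 cell of each group. The cytokine gene Il4 was at the limit in 7 of 15 and 5 of 14 cells, and Il6 in 11 and 9.

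Cytokine and chemokine genes were examined with the receptor gene Ccr1. Of 17 cytokine and chemokine genes, 8 were measured. The Mcpt8 plus Cma1 cells had 6 at least 2-fold higher and the Cma1-only cells 0, beside 30.5% and 28.8% of all genes. Only 1 of the 8 was at least 2-fold higher in the Mcpt8 plus Cma1 cells in both ranges of sort numbers. Csf1, a macrophage growth factor gene, drew 83.6% of its Mcpt8 plus Cma1 reads from BMCP replicate 29. Its log2 ratio of 5.89 became 3.49 without that cell. The cytokine genes Osm and Tnf were at the limit in 2 of the 14 cells each. Ccl4, an attractant of myeloid cells and lymphocytes, was called, with 50 CPM in 2 of 15 against 8 of 14 cells. BMCP replicate 33 gave 87.2% of its Cma1-only reads, and the log2 ratio went from 2.41 to 5.10 without it. Ccl9 met the call rule as well, at 2.08, but on few cells: 4 of 15 and 5 of 14 were at the limit, with medians of 2.20 and 3.04 CPM. Its log2 ratio was 1.25 without BMCP replicate 35, which ends the call, 2.90 without replicate 34, and -0.37 with a Mcpt8 limit of 200 CPM. The chemokine receptor gene Ccr1 had the highest ratio of the 174 called genes, with 16 reads in all Cma1-only cells (1.83 CPM, limits 1.05 to 2.97) and 5080 in the others (391 CPM, limits 380 to 402). No Cma1-only cell exceeded 6.61 CPM, while 8 of 14 Mcpt8 plus Cma1 cells had 126 to 1751 CPM. BMCP replicate 29 gave 48.2% of those reads, and the log2 ratio was 7.11 with it and 6.33 without. Ccr1 was 7.03 higher among numbers 1 to 47 and 6.32 higher among numbers 48 to 94.

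Ccr1, Cd200r3 and Fcer1a marked overlapping but not identical cells of the Mcpt8 plus Cma1 group. Of the 6 cells with Cd200r3 at 50 CPM or more, 5 (replicates 3, 35, 36, 18 and 82) also had Fcer1a at the limit, at 2392, 2194, 1880, 488 and 57.3 CPM. Replicates 35, 18 and 82 carried all 3 genes, with 838, 262 and 183 CPM of Ccr1. BMCP replicates 14 and 36, high for Cd200r3, had 8.36 and 0 CPM of Ccr1. Replicate 29, highest for Ccr1, had 0.72 CPM of Cd200r3. Replicates 93 and 52 had 0 CPM of all 3, at 620 and 3623 CPM of Mcpt8.

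Integrin, chemokine receptor and progenitor genes were examined next. Of 18 integrin and chemokine receptor genes, 14 were measured. The Mcpt8 plus Cma1 cells had 5 at least 2-fold higher and the Cma1-only cells 4 (28.6%), beside 30.5% and 28.8% of all genes. Itgb2, the beta chain of the leukocyte integrins, had 204 against 51.7 CPM, but its log2 ratio went from -1.96 to -0.89 without BMCP replicate 80. Hoxa7, a homeobox gene of immature blood cells, was called towards Cma1-only. The 5 Cma1-only cells at the limit, replicates 41, 31, 34, 68 and 49, had 388, 295, 251, 148 and 120 CPM. No Mcpt8 plus Cma1 cell exceeded 2.09 CPM. Replicates 41, 31, 34 and 68 had low Cma1 for members, at 60.7, 98.4, 56.3 and 131 CPM, and replicate 49 had 378 CPM. Hoxa7 overlaps the antisense gene Hoxaas3, from which its reads cannot be parted. Of 12 stem and multipotent progenitor genes, 7 were measured, with a median of -0.07. In the Cma1-only cells 2 (28.6%) were at least 2-fold higher, beside 28.8% of all genes. In the Mcpt8 plus Cma1 cells 1 was, beside 30.5%. This was Hlf, with a log2 ratio of 4.55 and 354 and 154 CPM in BMCP replicates 10 and 62. Cd34, the marker of early progenitors, summed to 749 and 712 CPM.

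Erythroid genes lay lower in the Mcpt8 plus Cma1 cells: of 13 listed, 8 were measured, with a median of -1.37. At least 2-fold higher were 1 in the Mcpt8 plus Cma1 and 4 in the Cma1-only cells, beside 30.5% and 28.8% of all genes. The summed level of the list was 2.44 to 3047 CPM (median 895) per Cma1-only cell and 0 to 2333 CPM (median 174) per Mcpt8 plus Cma1 cell. Car1, carbonic anhydrase 1, was called, with 50 CPM or more in 6 of 15 against 1 of 14 cells. BMCP replicate 29 gave 98.0% of the Car1 reads of the Mcpt8 plus Cma1 cells. The globin genes Hba-a1, Hba-a2, Hbb-bt and Hbb-bs had no read in any member. The part of these genes in the other differences was not tested.

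Transcription factors of the lineages were mostly level. Of 30 listed, 20 were measured, and the median was 0.12. In each group 3 were at least 2-fold higher, beside 30.5% and 28.8% of all genes. Lmo4, a LIM-only cofactor, was at the limit in 15 of 15 and 12 of 14 cells, with medians of 2444 and 954 CPM. Ikzf2, the zinc finger gene Helios, was at the limit in 15 of 15 and 9 of 14 cells, with medians of 621 and 347 CPM. Bhlhe40 drew 99.7% of its Cma1-only reads from BMCP replicate 92, and its ratio of 1.83 became 7.73 without it. Runx1, needed for the formation of blood stem cells, summed to 590 and 601 CPM.

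Cell cycle genes were high in a few Mcpt8 plus Cma1 cells. Of 12 genes of G2 and M phase, 11 were at least 2-fold higher there, and of 12 S phase genes 8 were. Over all genes the share was 30.5%. BMCP replicate 29 gave 88.02% of the Mki67 reads of its group and 100% of those of the spindle checkpoint activator Cdc20, and BMCP replicate 62 gave 99.8% of the reads of Rrm2, a subunit of the enzyme that makes deoxynucleotides. The summed G2 and M phase level reached 565 CPM at most in a Cma1-only cell and 9445 CPM in a Mcpt8 plus Cma1 cell, with medians of 4.56 and 2.57 CPM. Without replicates 29 and 62 the S phase median went from 1.92 to -0.47. The summed S phase level had medians of 431 and 626 CPM, and reached 2341 and 6344 CPM.

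Among immediate early genes, which respond within minutes to stimulation or handling, 11 were measured. At least 2-fold higher were 4 in the Mcpt8 plus Cma1 and 2 in the Cma1-only cells, beside 30.5% and 28.8% of all genes. The 4 were Zfp36, Egr2, Fosb and Jund, with log2 ratios of 5.62, 5.06, 1.61 and 1.14, and every Egr2 read came from BMCP replicate 18. Jun and Ier2 were the 2, at -1.48 and -1.46. Jun was at the limit in 10 of 15 and 6 of 14 cells, with medians of 342 and 22.2 CPM. Ier2 was at the limit in 10 and 7 cells, with medians of 337 and 58.4 CPM. Of stress and chaperone genes, 10 were measured. In the Mcpt8 plus Cma1 cells 0 were at least 2-fold higher and in the Cma1-only cells 1, beside 30.5% and 28.8% of all genes.

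**Figure D3:**
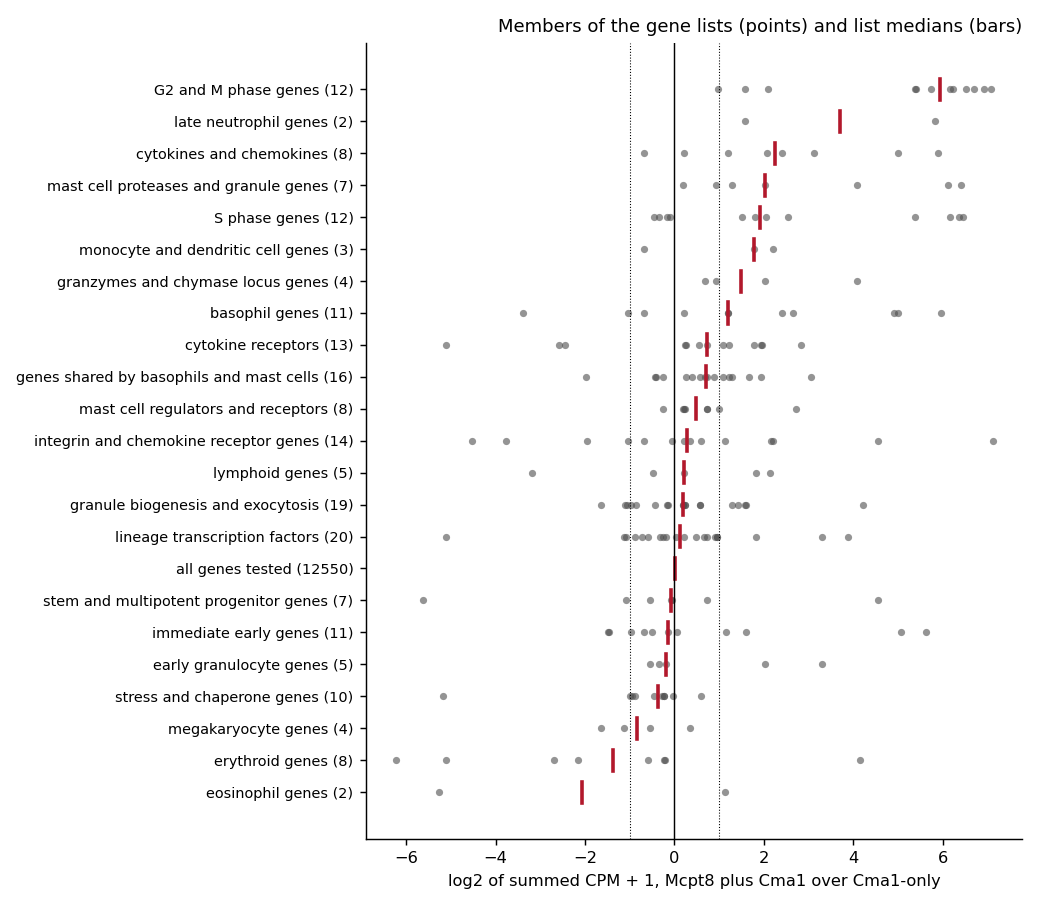
Log2 ratio of summed CPM + 1, Mcpt8 plus Cma1 over Cma1-only (x axis), for the measured members of each gene list (points) with the list's median (red bar), the number measured in parentheses, and dotted lines at 2-fold. The mast cell protease list has a median of 2.04, the basophil list 1.19, the lineage transcription factors 0.12 and the erythroid list -1.37. The G2 and M phase list, at the top with 5.94, rests largely on BMCP replicates 29 and 62. The S phase list has 1.92, and -0.47 without these cells.

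Since the groups also differ in Cma1, the same genes were compared over 1 range of it. This comparison was chosen after seeing the data. Within 200 to 10000 CPM of Cma1 there were 9 cells in each group, with median Cma1 of 645 and 4501 CPM, so the range was shared while the levels in it still differed. Cpa3 then had a log2 ratio of 0.50 in place of 1.30, Ctsd 0.33 in place of 1.59, Alox5 0.94 in place of 1.66 and Ndst2 0.36 in place of 0.99. Ccr1 (6.37), Cd200r3 (6.55), Csf2rb2 (2.28), Il9r (2.73) and Ifitm1 (-2.75) kept their direction and were past 4-fold in this range. The called genes Fcer1a and Ccl4 fell under 4-fold, from 3.06 to 1.94 and from 2.41 to 1.66. Fcer1a was at the limit in 3 of 9 Cma1-only and 4 of 9 Mcpt8 plus Cma1 cells, with medians of 1.81 and 4.52 CPM. Ifitm1 was at the limit in 7 of 9 Cma1-only and 3 of 9 Mcpt8 plus Cma1 cells of that range, and Ccr1 in 0 and 5. Hdc was at the limit in 2 and 1, with a log2 ratio of -1.21 in place of -1.98. Ms4a2 changed direction, from 0.40 to -1.33, as did Jun, from -1.48 to 0.72. Of the genes called over all members, 68 of 174 and 49 of 145 met the call rule among these cells. These cells are part of those that made the calls, so the values give no separate support. The part of Cma1 in the differences was not tested.

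**Figure D4:**
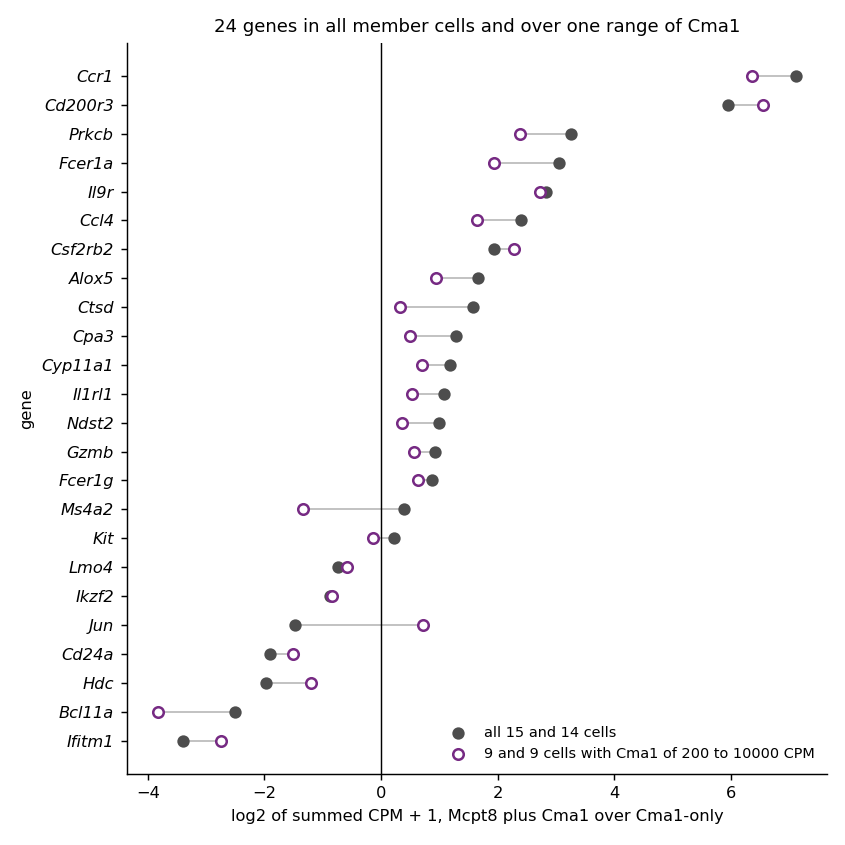
Log2 ratio of summed CPM + 1, Mcpt8 plus Cma1 over Cma1-only (x axis), for 24 genes over all 15 and 14 cells (filled) and over the 9 and 9 cells with Cma1 of 200 to 10000 CPM (open). Cpa3, Ctsd, Alox5 and Ndst2 move towards 0, Ccr1, Cd200r3 and Ifitm1 stay far from it, and Ms4a2, Kit and Jun cross it.

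The cells at either end of the Cma1 range of the Cma1-only group are given as a description, since Cma1 chose the members. The 6 Cma1-only cells with Cma1 below 200 CPM (replicates 5, 34, 41, 31, 68 and 25) had Ifitm1 of 300.2 to 5143 CPM, and 5 of them had Alox5 below 50 CPM. The Cma1-only cell with the highest Cma1, replicate 33 at 9263 CPM, had 9.76 CPM of Ifitm1, 4712 CPM of Alox5 and 23464 CPM of Cpa3. It had 8.54 CPM of Mcpt8. Its Ifitm1 and Cpa3 lay within the range of the Mcpt8 plus Cma1 cells, and its Alox5 lay above their highest cell.

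The other kept cells place the groups. Ifitm1 was at 50 CPM or more in 53 of 54 BMCP with neither gene, in 6 of 6 with Mcpt8 and no Cma1 at the limit and in 20 of 41 kept GMP, beside the 13 of 15 and 4 of 14 above. Alox5 was at the limit in 35 of 54 BMCP with neither gene and Cyp11a1 in 18 of 54, beside 5 of 6 each in the cells with Mcpt8 alone. Fcer1a was at the limit in 5 of 54 and 1 of 6, Cd200r3 in 2 of 54 and 0 of 6, and Ccr1 in 7 of 54 and 4 of 6. Cpa3 had medians of 1791 CPM in the cells with neither gene and 3981 CPM in the cells with Mcpt8 alone, against 3652 and 17731 CPM in the Cma1-only and the Mcpt8 plus Cma1 cells. Of the 174 genes called towards Mcpt8 plus Cma1, 41 (23.6%) were at least 2-fold higher in cells with Mcpt8 alone than in cells with neither gene, and 61 (35.1%) were at least 2-fold lower, beside 14.2% and 38.4% of all genes compared. Their median log2 ratio was -0.17, beside -0.36 over all genes. For the 145 genes called towards Cma1-only the shares were 11.7% and 35.2%.

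**Figure D5:**
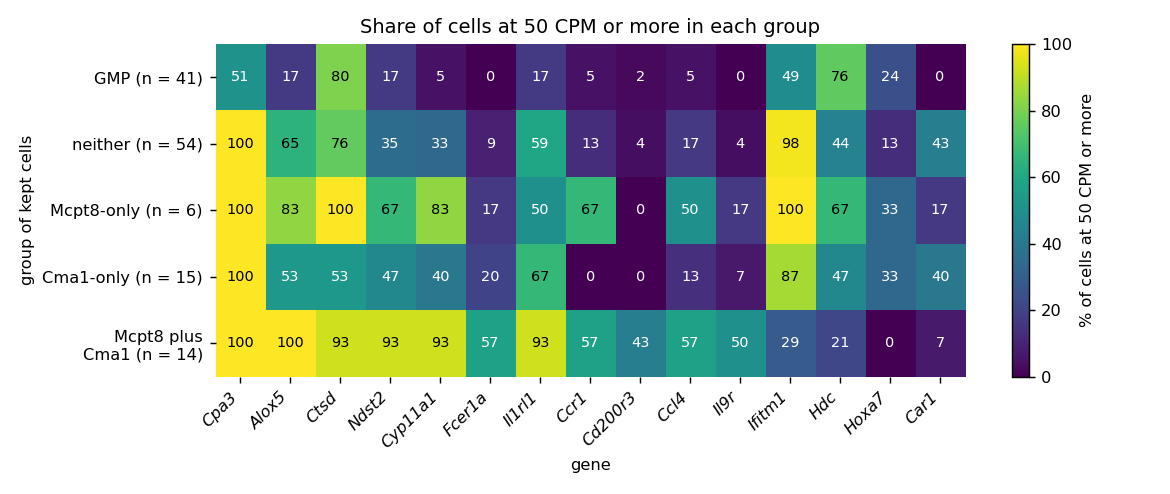
Percent of cells at 50 CPM or more (colour and number) for 15 genes (x axis) in the kept GMP and in the kept BMCP split by Cma1 and Mcpt8 (y axis, with the number of cells). Ifitm1 is at the limit in 13 of 15 Cma1-only, 4 of 14 Mcpt8 plus Cma1 and 53 of 54 cells with neither gene, a contrast that is absent between the Cma1 groups at 10 CPM (-0.48 points), and Alox5 is at 50 CPM in all 14 Mcpt8 plus Cma1 cells.

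The 12 genes with the largest ratio in each direction were mostly outside the lists. Their absence or near absence from one group follows from how they were picked. Of all 12550 genes, 3403 had no Cma1-only cell at the limit and 3432 had no Mcpt8 plus Cma1 cell at it. Towards Mcpt8 plus Cma1 the 12 were Ccr1, Yipf3, Calhm2, Fig4, Slc35b2, Sec24b, Alg3, Manbal, Galnt11, Ctns, Irf2bpl and Elp3. Sec24b is a coat protein of vesicles leaving the endoplasmic reticulum, and Slc35b2 carries the sulfate donor into the Golgi. Alg3 and Galnt11 build sugar chains, and Ctns exports cystine from lysosomes. Reads of Alg3, Galnt11, Calhm2 and Fig4 are uncertain because each overlaps another gene. These are Vwa5b2, Eef1akmt4 and Gm49333 for Alg3, E130116L18Rik for Galnt11, Pdcd11 for Calhm2 and Gm25526 for Fig4. Ctns had 0 CPM in the 4 Mcpt8 plus Cma1 cells of numbers 48 to 94, where its log2 ratio was -0.28, and it stood at -0.05 with a Mcpt8 limit of 200 CPM. Yipf3, a Golgi membrane protein gene, was the most frequent, at 50 CPM or more in 0 of 15 against 10 of 14 cells. It had 203 CPM (limits 195 to 211) against 1.03 (0.47 to 1.95). Outside both groups, Yipf3 was at the limit in 16 of 54 BMCP with neither gene and 2 of 6 with Mcpt8 alone, and Elp3 in 10 and 0. Sec24b, Slc35b2 and Galnt11 were each at the limit in 0 of 15 against 7 of 14 cells.

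Towards Cma1-only the 12 included Gm17590, Ube2f, Psmd5, Atp5s, Mynn, Hdac4, Tbk1, Stxbp5, Ndufaf3, P4htm and Uros. Each of these was at the limit in 5 to 7 of 15 Cma1-only cells and in 0 of 14 of the others. The call rule itself asks for at least 33.3% of the higher group's cells. Outside both groups, Gm17590 was at the limit in 23 of 54 BMCP with neither gene and 2 of 6 with Mcpt8 alone, and Atp5s in 13 and 0. Ube2f, which joins NEDD8 to cullins, had 238 CPM (limits 228 to 248) against 0.31 (0.08 to 0.79). Psmd5, a chaperone of proteasome assembly, had 362 against 1.15 CPM. Hdac4, a histone deacetylase, had 206 against 1.15 CPM in 6 of 15 against 0 of 14 cells. Gm17590 overlaps Cdk6, so its reads are uncertain, and Ndufaf3 and Uros overlap Impdh2 and Bccip.

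A few genes outside these rules are named after their values were seen. Only 4 genes were at 50 CPM or more in at most 2 Cma1-only and at least 10 Mcpt8 plus Cma1 cells, and only 3 the reverse. The first were Yipf3, Clns1a, 2310011J03Rik and Edem3. The second were Sdsl, Atp1b2 and Scaf8. Clns1a, a chaperone of splicing particle assembly, was at the limit in 2 of 15 and 10 of 14 cells, with medians of 1.596 and 232 CPM. Atp1b2, a subunit of the sodium pump, was at the limit in 11 of 15 and 1 of 14 cells, with medians of 319.9 and 3.56 CPM, and in 35 of 54 cells with neither gene. Scaf8, an RNA processing factor gene, was at the limit in 12 of 15 and 2 of 14 cells.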

How the data were processed

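Single-cell RNA was reverse transcribed from oligo-dT, amplified by PCR with spike-in RNA and sequenced as single-end reads, per the labels' protocols, without molecular identifiers, so reads do not count molecules. The authors deposited raw read counts for each gene in each cell. Alignment and counting tools named are GSNAP and HTSeq 0.5.3p3, with mm10 as the build, per the submitters' processing notes, and no release of the annotation is stated. Symbols and gene coordinates came from GENCODE on GRCm38 (45229 of 46078 gene rows matched), and promoter sequence from RefSeq. The protocol does not mark strand, so overlapping genes are uncertain.

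Cells with at least 50000 nuclear-encoded counts, at most 10% mitochondrial and at most 50% spike-in counts were kept. No 2 members had identical counts, and doublets were not called, since cells were sorted singly into wells. Reads assigned to no gene (18.0% of the members' reads), ambiguous ones (3.68%) and unaligned ones (31.5%) stayed out of all totals. Ratios are log2 of summed CPM plus a pseudocount of 1, over 12550 genes with at least 1 CPM in either group. A count of 0 or a very low count was read against a floor of 3 counts (0.34 and 0.23 CPM). No cell is tied to a mouse, so no test was possible and p-values were not computed. Exact Poisson and Clopper-Pearson limits are at 95%. BMCP numbers 1 to 47 and 48 to 94 are ranges of the sort numbers, whose meaning the labels do not give.

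The members, the 22 gene lists and the call rule were chosen with earlier results of these data known. Genes were named as list members, or as the 12 with the largest ratio each way among genes that met the call rule, and the few others are said to be named after their values were seen. Some genes that these rules name are not reported here. Alternatives covered scaling, pseudocount, gene filter, thinning, the Cma1 and Mcpt8 limits, the number ranges, depth and each cell left out. The scripts (numpy 2.4.6, scipy 1.17.1 and pandas 2.3.3 under Python 3.11.15) were tested on simulated data.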

Additional observations from a re-analysis of the deposited data

How the results depend on the processing

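With 3 mice and no map from cells to mice, no spread between animals can be given. No paired analysis was possible because no test was made and the cells' numbers pair nothing. The calls were 174 towards Mcpt8 plus Cma1 and 145 towards Cma1-only. Leaving out 1 cell at a time gave 136 to 204 and 105 to 177. The calls became 271 and 131 among numbers 1 to 47 (9 Cma1-only and 10 Mcpt8 plus Cma1 cells). They became 81 and 192 among numbers 48 to 94 (6 and 4 cells). The call rule depends on the number of cells in a group, so these counts do not show a turn in balance. Of the 174 and 145 genes, 19 and 36 met the rule again among numbers 48 to 94, with fewer cells. Spike-in scaling gave 225 and 102, and a pseudocount of 10 gave 132 and 104. A Cma1 limit of 200 CPM left 9 Cma1-only cells, reversed Jun to 0.53 and the eosinophil list median to 2.62. A Mcpt8 limit of 200 CPM reversed Ccl9 to -0.37 and Ctns to -0.049. Among numbers 48 to 94, Fcer1a was -2.49, Cyp11a1 -0.30, Ctns -0.28 and the monocyte and dendritic cell list -2.21. That list's median was -0.51 to 2.05 with 1 cell left out, lowest without BMCP replicate 29. The S phase median was -0.65 to 5.35, lowest without replicate 62. Without both of these cells, chosen after seeing the data, the medians were -0.47 each and the calls 200 and 206. Over Cma1 of 200 to 10000 CPM, also chosen after seeing the data, 9 cells remained in each group, Jun was 0.72 and the calls were 245 and 184. At a limit of 10 CPM in place of 50, the share of Mcpt8 plus Cma1 cells minus that of Cma1-only cells was 20.0 points for Alox5, 33.3 for Cyp11a1, 6.19 for Ctsd and -0.48 for Ifitm1. The causes of these changes were not tested.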

Other observations

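Genes of other lineages were sparse in the members. Of 9 eosinophil genes 2 were measured, Ccr3, the eotaxin receptor, at the limit in 2 of 15 and 1 of 14 cells, and Siglecf in 2 and 0. Of 10 early granulocyte genes 5 were measured, with a median log2 ratio of -0.19, while Ctsg and Gfi1 stood at 2.04 and 3.30. Gfi1, a repressor of granulocyte development, was at the limit in BMCP replicate 10 alone, at 147 CPM. Of 9 late neutrophil genes 2 were measured, Mmp8 and Ltf, which had no read in any Cma1-only cell and reached 481 and 46.3 CPM in the others. The list had a median of 0 CPM per cell in both groups. Of 11 monocyte and dendritic cell genes 3 were measured, and Cx3cr1, the fractalkine receptor, was at the limit in 8 of 15 and 10 of 14 cells, with medians of 119 and 169 CPM. Csf1r had 1 read over all members and Irf8 had 3.

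Of 8 megakaryocyte genes 4 were measured, with a median of -0.83. Itga2b, the platelet integrin chain that early progenitors also carry, was at the limit in 8 of 15 and 11 of 14 cells, while Pf4 and Gp9 had no read. Of 12 lymphoid genes 5 were measured, with a median of 0.21, and the T cell receptor constant gene Trbc1 was at the limit in 4 of 15 and 0 of 14 cells, at 56.6 and 5.31 CPM. Of 13 genes of the granzyme and chymase locus on chromosome 14, 4 were measured, with a median of 1.48, and 4 granzyme genes, Gzmd, Gzmf, Gzmg and Gzmn, had no read in any member.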
